A study of Mus musculus with 6 samples.

Results

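The genes described are those raised in transcript level in disc cell cultures labelled Chsy3 knockout, clear of the levels in wild-type and heterozygous cultures. They were chosen on the counts of all 6 libraries, scaled to the total of each library and given as CPM. A gene was taken when the mean of the 2 knockout libraries was at least 5 CPM and the lower knockout library was at least 1.7 times the highest of the 4 other libraries. Predicted genes, clone names, and genes whose names begin with Sfrp, Hox, Ccl, Cxcl, H2-, Ifi, Mmp or Col were left out. Of 46095 gene symbols in the table, 67 met the rule. Without the name filters it returned 89 genes. The same rule turned to the other genotypes returned 119 genes raised in heterozygous cultures and 158 raised in wild type.

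The study profiled messenger RNA in primary cultures from the nucleus pulposus, the gelatinous core of the intervertebral disc. The cells came from mice 8 weeks old, all labelled male, and were used at passage 2 after collagenase digestion and growth in DMEM with fetal bovine serum. The groups were wild type (WT), Chsy3 heterozygous (HE) and Chsy3KO (KO), with 2 libraries each, and the title of the series speaks of a knockdown where the sample labels give genotypes. No treatment is named. The labels do not say how the allele was made, nor whether both libraries of each group stem from different animals or cultures, so the spread between them may be technical and p-values measure only that spread.

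The Chsy3 product is 1 of the chondroitin sulfate synthases, which extend the sugar chains carried by proteoglycans of the disc matrix. Those chains hold water and bind growth factors, and the nucleus pulposus is known for its high content of them. Primary cultures of the tissue can also hold macrophages, vessel cells and fibroblasts, and in RNA from a whole culture fewer cells of a type and less RNA per cell cannot be told apart. Interferon-inducible genes, several of which are among the genes described, are switched on through STAT factors that bind short promoter elements.

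Chsy3 itself (chromosome 18 of GRCm38) had 284 and 284 counts in wild type, 167 and 197 in heterozygous and 118 and 76 in knockout, or 8.38 and 8.39, 5.64 and 6.06, and 3.64 and 2.28 CPM. Its order followed the labels, and reads of it remained in both knockout libraries. Total counts ranged from 29622117 to 33899611 per library, so that a gene with 0 counts may still lie at up to 0.0885 to 0.101 CPM (3 counts), a limit for counting error only. Of the defining markers of the tissue, Acan had 8 counts in 1 library and 0 in the others, and T, Shh, Foxa2 and Noto had 0 in all. Of 15 markers of nucleus pulposus and notochord 9 passed the filter on low counts, among them Krt19 (15.0 and 16.6 CPM in wild type, 0.400 to 2.82 in the others) and Pax1 (19.9 to 66.7 CPM over all libraries). The Y-linked genes Ddx3y, Uty, Kdm5d and Eif2s3y had 0 counts in both heterozygous libraries and 261 to 1081 in the others, against the male label. In the comparisons of heterozygous with wild type and with knockout, a difference of genotype and a difference of sex therefore cannot be told apart. Xist, a transcript known from female cells, had 21448 or more counts in every library. It stood at 666 and 656 CPM in wild type, 1052 and 1048 in heterozygous, and 662 and 668 in knockout. The wild-type and knockout libraries thus held both Xist and Y-linked reads, also against the male label, and their make-up by sex was not tested.

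The level of the 67 genes in knockout ranged from 5.13 to 1527 CPM with a median of 16.1. In 40 genes it was under 20 CPM and in 10 it was over 100. The lower knockout library was 2.10 times the highest other library in the median gene, at least 2 times in 37 genes, at least 3 times in 8 and at least 4 times in 4. Just inside the limit stood Nlrc5 at 1.705, Npy at 1.724 and Cd300ld at 1.727, and just outside stood Mt2 at 1.694, Trim12a at 1.684 and LOC100861749 at 1.682. Together the 67 genes took 0.508% of the reads in knockout, 0.156% in wild type and 0.170% in heterozygous cultures. The knockout libraries lay within 1.2-fold of each other for 57 of the 67 genes. The gene with the widest gap was Ets2, a transcription factor of the ETS family, at 12.8 and 5.34 CPM. Since the rule used every library, each gene is by construction higher in knockout than in wild type and heterozygous, and those differences are given as levels only. For scale, 19.2% of the 16061 genes tested passed as higher in knockout than wild type and 18.9% as lower, and 19.1% passed as higher in knockout than heterozygous and 17.9% as lower (edgeR quasi-likelihood test, adjusted p under 0.05).

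**Figure D1:**
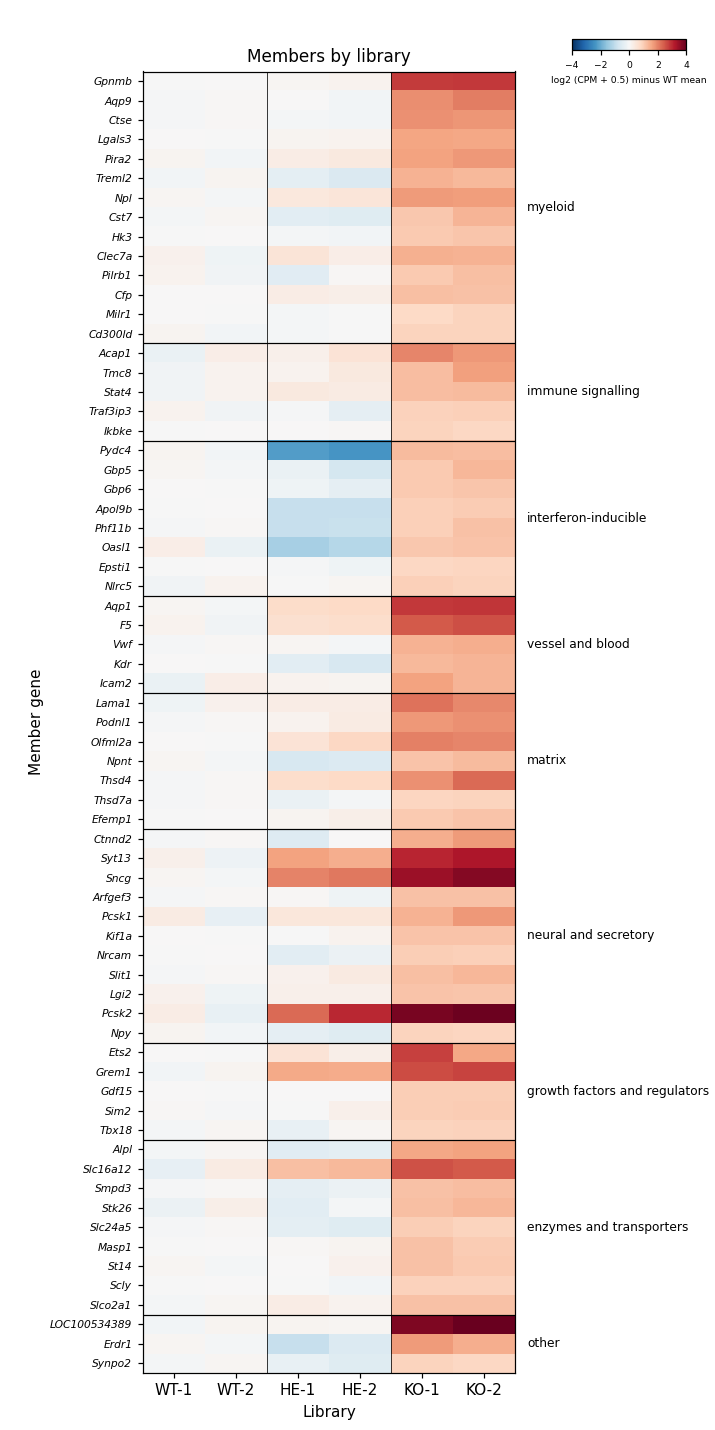
Level of each of the 67 genes (rows, grouped by role) in each of the 6 libraries (columns), as log2 (CPM + 0.5) minus the mean of the 2 wild-type libraries. Red is higher and blue lower than wild type, values beyond 4 share the end colour, and the knockout columns are red throughout because the rule chose the genes on them, while the heterozygous columns hold both colours.

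The rule treated wild-type and heterozygous libraries alike, so it did not set the sign of a difference between them, although it capped both. This comparison asks whether the genes already differed in heterozygous cultures. Of the 67 genes, 17 (25.4%) were higher in heterozygous than in wild type, 11 (16.4%) were lower and 39 did not pass. Among all 16061 genes tested, 19.2% were higher and 19.7% lower, so the shares were near those of genes at large and are not a result about the 67. Their median log2 fold change was 0.07, beside -0.003 for all genes tested, and the values ran from -3.07 to 4.27. A difference of at least 2-fold was found for 5 genes on the higher side and 3 on the lower. The rule itself allows such differences, since it only keeps both groups under the knockout. Of the calls, those of Pira2, Stat4, Erdr1, Alpl, Npy, Kdr and Nrcam were lost when a single library was left out, as given with each gene.

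**Figure D2:**
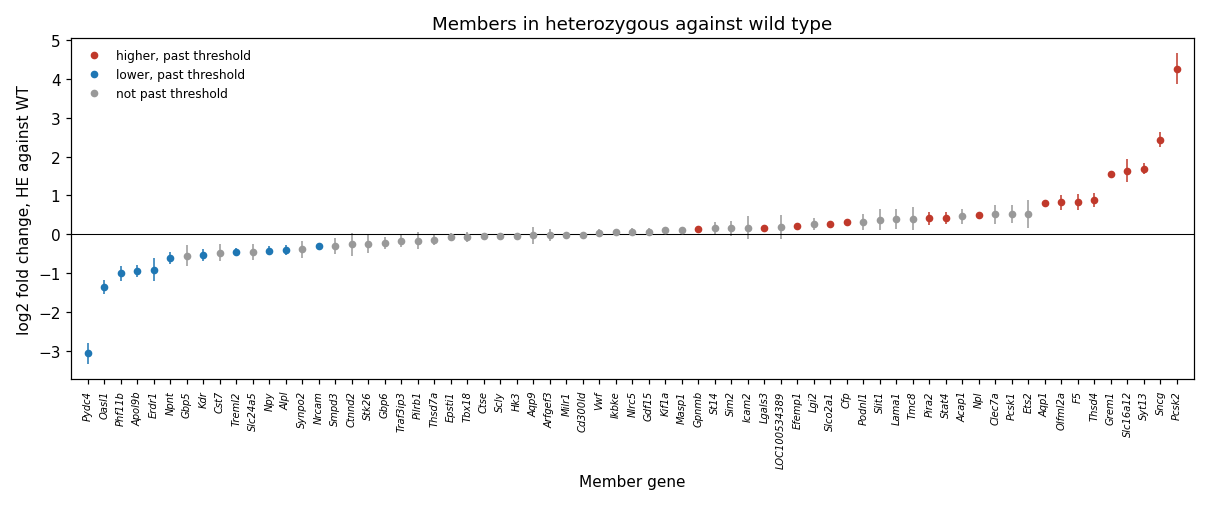
Log2 fold change of heterozygous against wild type for each of the 67 genes, ordered by value, with bars of 1 standard error from the edgeR fit. The points run from -3.07 (Pydc4) to 4.27 (Pcsk2), with 17 red points past the threshold above 0, 11 blue points past it below 0 and 39 grey points that did not pass.

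The largest group by role, 14 genes, holds genes known from macrophages and other myeloid cells. Gpnmb, a glycoprotein of lysosomes and of lipid-laden macrophages (chromosome 6, 49036518 to 49058182), had 214 and 220 CPM in wild type, 230 and 237 in heterozygous, and 1524 and 1530 in knockout. The knockout mean was thus 7.03 times that of wild type, and the lower knockout library 6.43 times the highest other library. Lgals3, which encodes the sugar-binding lectin galectin-3, had 348 and 338 CPM in wild type, 373 and 379 in heterozygous, and 1025 and 1012 in knockout. Per kilobase of exon these were the highest knockout levels among the 64 genes with a known length, at 548 CPM per kb for Lgals3 and 234 for Gpnmb, followed by 163 for Cfp. Cfp, or properdin, which stabilises the alternative complement convertase and is encoded on the X chromosome, had 123 and 123 CPM in wild type, 150 and 146 in heterozygous, and 286 and 279 in knockout. In all 3 genes the heterozygous libraries lay above both wild-type libraries. The log2 fold changes were 0.14 ± 0.03 (SE) for Gpnmb, 0.17 ± 0.03 for Lgals3 and 0.31 ± 0.04 for Cfp, with adjusted p-values of 1.68e-05, 4.41e-07 and 3.37e-09. The knockout means of Lgals3 and Cfp were 2.97 and 2.30 times those of wild type.

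Ctse, the aspartic protease cathepsin E, had 22.0 and 23.6 CPM in wild type, 21.6 and 21.2 in heterozygous, and 82.1 and 78.4 in knockout. Aqp9, a channel for water and glycerol, had 2.45 and 2.63, 2.57 and 2.31, and 10.5 and 12 CPM in the same order. Neither differed between heterozygous and wild type past the threshold (adjusted p = 0.634 and 0.959). Npl, the lyase that breaks down sialic acid, had 42.2 and 37.0 CPM in wild type, 53.2 and 55.7 in heterozygous, and 130 and 126 in knockout, and its step in heterozygous passed (log2 0.50 ± 0.06, adjusted p = 5.21e-09). Hk3, a hexokinase of myeloid cells, had 72.4 and 73.0, 69.5 and 67.9, and 151 and 157 CPM, and Cd300ld, an immunoglobulin-like receptor, 60.6 and 52.5, 53.5 and 55.9, and 105 and 105 CPM. The knockout means were 2.12 and 1.85 times those of wild type, while heterozygous did not differ from wild type past the threshold (adjusted p = 0.565 and 0.942). Treml2, a receptor of the TREM family, went the other way in heterozygous: it had 13.6 and 15.7 CPM in wild type, 11 and 9.65 in heterozygous and 38.8 and 36.4 in knockout, a fall by 0.46 on the log2 scale (SE 0.11, adjusted p = 7.37e-04). Pira2, an activating immunoglobulin-like receptor, had 5.07 and 4.25, 5.84 and 6.24, and 15.1 and 16.7 CPM. Its rise in heterozygous (log2 0.41 ± 0.16, adjusted p = 0.0417) was lost in 8 of the alternatives, among them leaving out wild-type replicate 2, either heterozygous library or either knockout library, with an adjusted p of up to 0.291. The remaining myeloid genes, at 6.66 to 69.0 CPM in knockout, were Cst7, the protease inhibitor cystatin F, Clec7a, the beta-glucan receptor dectin-1, and the receptors Pilrb1 and Milr1, and none of them passed in heterozygous. Pira2, Pilrb1 and Cd300ld belong to families of near-identical receptors, so their counts are uncertain to the extent that reads were split among copies.

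**Figure D3:**
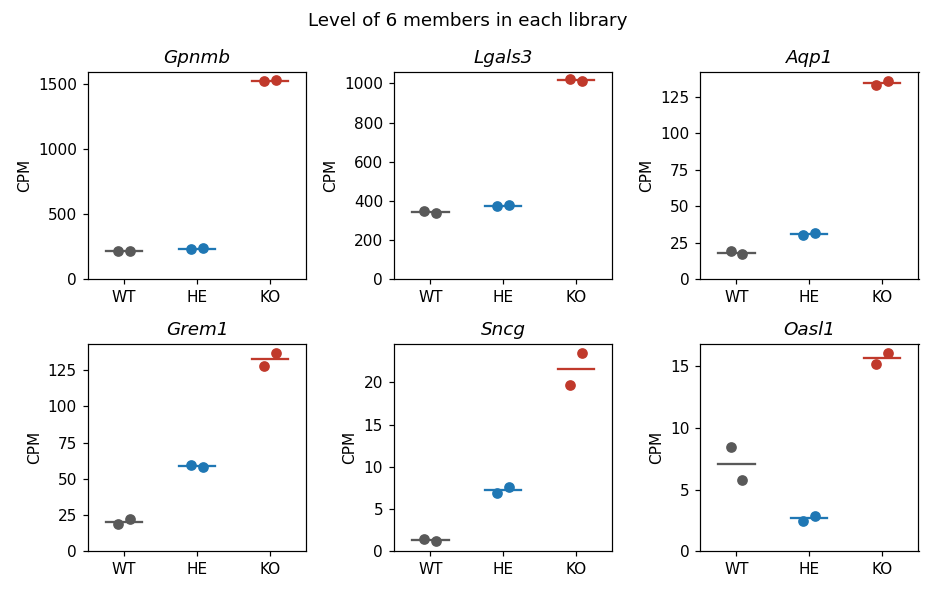
CPM of 6 genes in each library (points) with the mean of each genotype (line), axes from 0. For Gpnmb and Lgals3 the wild-type and heterozygous points lie close together under the knockout, for Aqp1, Grem1 and Sncg the heterozygous points lie between, and for Oasl1 they lie below wild type.

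Markers of macrophages were present at high levels in every library and none of them was among the 67 genes. The summed level of 18 such markers was 15351 and 15081 CPM in wild type, 17605 and 17544 in heterozygous, and 17753 and 17664 in knockout, or 1.16 times wild type in knockout and 1.15 times in heterozygous. Of the 17 tested, 8 were higher and 4 lower in heterozygous than wild type, 11 were higher and 1 lower in knockout than wild type, and 12 were higher and 2 lower in knockout than heterozygous. Without wild-type replicate 2, 2 markers rather than 1 were lower in knockout than wild type. The mannose receptor gene Mrc1 had 753 and 754 CPM in wild type, 1792 and 1822 in heterozygous, and 1857 and 1862 in knockout (knockout against wild type, log2 1.28 ± 0.02, adjusted p = 1.29e-38). The chemokine receptor gene Cx3cr1 had 140 and 139, 31.9 and 31.8, and 27.7 and 32.1 CPM (log2 -2.25 ± 0.06, adjusted p = 2.29e-30). Lyz2 contributed 7239, 8629 and 7164 CPM to the sum on average in wild type, heterozygous and knockout. Csf1r (932, 904 and 1143 CPM) and Cd68 (613, 696 and 911 CPM) were highest in knockout. The part of the number of macrophages in the levels of the myeloid genes was not tested. Lgals3 also stands in a list of nucleus pulposus and notochord markers, of which 8 others were tested: 2 were higher and 3 lower in knockout than wild type, the count of lower genes being 1 without wild-type replicate 1.

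Immune signalling was represented by 5 genes. Ikbke, the kinase IKK-epsilon of antiviral signalling, had 53.3 and 54.1 CPM in wild type, 53.7 and 55.3 in heterozygous, and 100 and 95.6 in knockout, with overlapping wild-type and heterozygous libraries. Acap1, which acts on the small GTPase Arf6 in endosome traffic, had 3.16 and 4.85, 4.62 and 6.03, and 16.5 and 14.3 CPM, and Stat4, a transcription factor activated by interleukin-12, had 5.81 and 7.33, 8.68 and 8.39, and 16.0 and 16.4 CPM. The Stat4 libraries of heterozygous lay above those of wild type (log2 0.42 ± 0.15, adjusted p = 0.0214), but the call was lost without wild-type replicate 1 or without either heterozygous library (adjusted p of up to 0.294). Traf3ip3 and Tmc8 reached 13.5 and 5.13 CPM in knockout and did not pass in heterozygous.

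Of the 8 interferon-inducible genes, 4 were lower in heterozygous than wild type and 4 did not pass, beside 19.7% lower among all genes tested. The group was formed with earlier results of these data known. Pydc4, a pyrin-domain gene that RefSeq lists as Ifi213, had 5.04 and 4.20 CPM in wild type, 0.574 and 0.492 in heterozygous, and 11.7 and 11.6 in knockout. Oasl1, a relative of the oligoadenylate synthetases, had 8.44 and 5.79, 2.5 and 2.89, and 15.2 and 16.1 CPM. Phf11b had 4.81 and 5.14, 2.36 and 2.43, and 10.1 and 11.9 CPM. In each the heterozygous libraries lay under both wild-type libraries. Apol9b, an apolipoprotein L gene, had 9.14 and 9.25 CPM in wild type, 4.59 and 4.67 in heterozygous, and 18.4 and 19.2 in knockout, so that wild type was 1.99 times heterozygous and knockout 2.04 times wild type. These 4 genes were lower in heterozygous than wild type, with log2 fold changes of -3.07 ± 0.27 for Pydc4, -1.36 ± 0.19 for Oasl1, -1.01 ± 0.20 for Phf11b and -0.95 ± 0.15 for Apol9b, and adjusted p-values of 4.86e-13, 7.87e-08, 7.02e-05 and 8.69e-07. The guanylate-binding protein genes Gbp5 (2.65 and 2.33, 1.96 and 1.35, 5.62 and 7.05 CPM) and Gbp6 (7.23 and 7.12, 6.38 and 5.50, 15.3 and 16.1 CPM) lay lower in both heterozygous libraries without passing (adjusted p = 0.110 and 0.242). Nlrc5, the activator of class I histocompatibility genes, and Epsti1 were level between wild type and heterozygous (log2 0.07 ± 0.08 and -0.07 ± 0.09) and reached 63.5 and 35.2 CPM in knockout. Apol9b, Phf11b, the guanylate-binding genes, Oasl1 and Pydc4 have close copies in the genome, so their counts are uncertain, and the name filters would have dropped Pydc4 under its RefSeq name.

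The promoters of 4 of these genes and that of Stat4 are of interest because the interferon-stimulated response element (ISRE) is the short sequence through which interferon signals reach such genes. Promoters from RefSeq (GRCm38.p6) were matched by name for 49 of the 67 genes, and the 250 bases before each annotated start were searched on both strands. The ISRE, searched as GAAA, any 2 bases and GAAA, occurred in 7 of the 49 (14.3%), namely Apol9b, Gbp5, Kif1a, Pcsk1, Phf11b, Pilrb1 and Stat4, and in 3.46% of 27025 genes. Of these, Apol9b, Gbp5 and Phf11b belong to the interferon-inducible group, while Kif1a, Pcsk1, Pilrb1 and Stat4 belong to other groups. The 180 bases before a start are shown for Gbp5 (chr3:142496754-142496933, plus strand), Apol9b (chr15:77728892-77729071, plus strand), Phf11b (chr14:59341331-59341510, minus strand), Stat4 (chr1:52008060-52008239, plus strand) and, for contrast, Epsti1 (chr14:77904059-77904238, plus strand). They are written 5′ to 3′ along the gene with the ISRE matches in capitals, and where a gene has several starts the one with a match is shown.
Gbp5: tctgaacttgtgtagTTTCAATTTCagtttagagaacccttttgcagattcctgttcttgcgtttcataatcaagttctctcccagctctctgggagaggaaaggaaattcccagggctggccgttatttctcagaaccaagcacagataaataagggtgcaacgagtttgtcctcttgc
Apol9b: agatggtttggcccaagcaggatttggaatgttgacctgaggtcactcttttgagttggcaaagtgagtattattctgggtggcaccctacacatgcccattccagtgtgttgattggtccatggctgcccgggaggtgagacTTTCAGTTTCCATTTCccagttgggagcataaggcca
Phf11b: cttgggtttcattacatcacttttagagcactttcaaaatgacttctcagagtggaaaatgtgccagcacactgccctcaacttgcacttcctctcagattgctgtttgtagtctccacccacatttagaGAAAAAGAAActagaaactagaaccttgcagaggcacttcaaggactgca
Stat4: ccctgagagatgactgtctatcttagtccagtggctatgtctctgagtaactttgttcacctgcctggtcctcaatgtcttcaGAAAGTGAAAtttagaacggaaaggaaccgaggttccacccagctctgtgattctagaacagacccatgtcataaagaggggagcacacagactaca
Epsti1: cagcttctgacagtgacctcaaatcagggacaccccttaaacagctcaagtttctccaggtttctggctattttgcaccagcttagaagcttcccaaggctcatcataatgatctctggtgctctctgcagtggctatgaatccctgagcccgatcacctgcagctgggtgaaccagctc
Counted from the start, the match begins at -165 in Gbp5, at -37 in Apol9b, where a further match overlaps it, at -50 in Phf11b and at -97 in Stat4. In Gbp5 and Apol9b the match lies on the opposite strand and reads as TTTC. The start shown for Stat4 lies inside the gene, which begins at 51987106. No letters matched in Epsti1 or in the window of Oasl1. The other elements searched were the interferon-gamma element GAS (TTCNNNGAA) in 4.08% against 8.13%, the PU.1 core GAGGAA of myeloid promoters in 28.6% against 25.9%, AP-1 (TGANTCA) in 8.16% against 7.82%, the lysosomal CLEAR E-box CACGTG in 12.2% against 6.86%, the MITF E-box CATGTG in 12.2% against 13.8%, CCAAT in 34.7% against 37.5%, TATAAA in 6.12% against 14.3% and the GC box GGGCGG in 46.9% against 35.4%. With the window of highest GC content taken for each gene, the median GC content was 56.4% in the 49 genes and 52.8% in all genes. These matches describe the letters only.

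A list of 26 interferon-stimulated genes holds Oasl1 alone of the 67. All 26 were lower in heterozygous than wild type, with a median log2 fold change of -0.92. Of the 25 other than Oasl1, 18 were higher and 1 lower in knockout than wild type (median 0.33), and 25 were higher in knockout than heterozygous (median 1.32). The antiviral enzyme gene Oas3 had 59.2 and 62.6 CPM in wild type, 28.9 and 29.2 in heterozygous, and 103 and 107 in knockout, and Parp14, an ADP-ribosyltransferase gene, had 169 and 172, 156 and 142, and 250 and 249 CPM. Both rose in knockout against wild type (log2 0.76 ± 0.06 and 0.53 ± 0.04, adjusted p = 1.94e-15 and 1.03e-15). The summed level of the list was 1998 and 2023 CPM in wild type, 1169 and 1125 in heterozygous, and 2555 and 2539 in knockout.

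**Figure D4:**
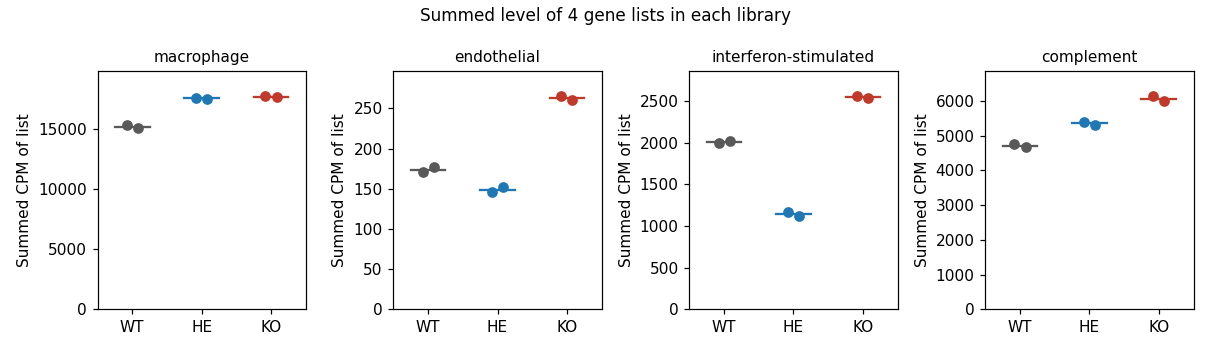
Summed CPM of 4 gene lists in each library (points) with the mean of each genotype (line), axes from 0. Macrophage markers stood at 17544 to 17753 in heterozygous and knockout alike, endothelial markers and interferon-stimulated genes were lowest in heterozygous and highest in knockout, and complement genes were lowest in wild type and highest in knockout.

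Genes of vessels and blood numbered 5. Aqp1, a water channel of vessel walls and red cells, had 19.2 and 17.1 CPM in wild type, 30.3 and 31.6 in heterozygous, and 133 and 136 in knockout. Its heterozygous libraries lay above wild type (log2 0.81 ± 0.07, adjusted p = 9.54e-13), and its knockout mean was 7.39 times that of wild type. F5, coagulation factor V, took the same order at lower levels, with 2.27 and 1.80, 3.44 and 3.63, and 13.3 and 14.5 CPM (heterozygous against wild type, log2 0.84 ± 0.21, adjusted p = 0.00124). Vwf, von Willebrand factor, had 19.9 and 21.0, 21.5 and 19.4, and 54.6 and 57.3 CPM, with overlapping wild-type and heterozygous libraries. Kdr, the VEGF receptor 2, had 7.52 and 7.21, 5.37 and 4.55, and 18.7 and 19.5 CPM, and was lower in heterozygous (log2 -0.53 ± 0.15, adjusted p = 0.00435), a call lost without heterozygous replicate 2 (adjusted p = 0.0777). Icam2, an adhesion molecule of endothelium and leukocytes, reached 6.11 and 5.01 CPM in knockout from 1.30 to 2.07 CPM elsewhere.

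Several other defining markers of endothelium were close to 0 or fell. Pecam1 was low throughout but highest in knockout, with 3 and 3 counts in wild type, 8 and 10 in heterozygous, and 30 and 23 in knockout. These were 0.0885 and 0.0886, 0.270 and 0.307, and 0.926 and 0.690 CPM. Cldn5 had 0 counts in all libraries. Cdh5, the endothelial cadherin gene, had 6.78 and 6.35 CPM in wild type, 0.540 and 0.892 in heterozygous, and 0.679 and 1.35 in knockout. It was lower than wild type in heterozygous (edgeR, log2 -3.14 ± 0.33, adjusted p = 9.42e-11) and in knockout (log2 -2.71 ± 0.31, adjusted p = 9.11e-10). Knockout and heterozygous did not differ past the threshold (adjusted p = 0.401). Among 7 tested endothelial markers other than Kdr and Vwf, 2 were higher and 3 lower in knockout than wild type. Across all 9 tested, 1 was higher and 4 were lower in heterozygous than wild type, the 1 being lost without wild-type replicate 2 or heterozygous replicate 2. The summed level of 13 markers was 171 and 177 CPM in wild type, 146 and 152 in heterozygous, and 265 and 261 in knockout, most of it from Eng (130 and 137, 114 and 122, 189 and 180 CPM), a TGF-beta co-receptor that macrophages also express. The part of endothelial cells in the levels of Aqp1, Vwf and Kdr was not tested.

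Of the 7 matrix genes, Efemp1, which encodes fibulin-3 of elastic tissue, was the highest per kilobase at 101 CPM per kb in knockout. It had 96.7 and 98.0 CPM in wild type, 105 and 114 in heterozygous, and 200 and 213 in knockout, and the small step in heterozygous passed (log2 0.21 ± 0.04, adjusted p = 1.60e-04). Lama1, the laminin alpha 1 chain of basement membranes, had 1.39 and 1.89, 2.09 and 2.09, and 9.10 and 7.55 CPM, and Podnl1, a small leucine-rich repeat protein, 2.77 and 2.95, 3.21 and 3.75, and 10.6 and 11.3 CPM. Both lay higher in heterozygous without passing (adjusted p = 0.255 and 0.227). Olfml2a, a secreted olfactomedin-like protein (2.89 and 2.75, 4.32 and 5.35, 13 and 12.3 CPM), and Thsd4, a microfibril-binding protein (2.77 and 3.04, 5.0 and 5.41, 11.7 and 15.8 CPM), rose in heterozygous by log2 0.82 ± 0.19 and 0.88 ± 0.19 (adjusted p = 5.97e-04 and 2.44e-04). Npnt, the integrin ligand nephronectin, fell there by 0.61 on the log2 scale, from 7.23 and 6.5 to 4.19 and 4.55 CPM, and reached 15.8 and 17.2 in knockout (SE 0.16, adjusted p = 0.00201). Thsd7a, a membrane thrombospondin-domain protein, had 16.0 and 16.2 CPM in knockout and did not pass in heterozygous.

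The wider set of proteoglycan core proteins, to which Podnl1 belongs, did not rise as a whole. Of 30 tested besides Podnl1, 8 were higher and 15 lower in knockout than wild type, with a median log2 of -0.24, and in heterozygous 14 were higher and 7 lower with a median of 0.11. Prelp had 854 and 845 CPM in wild type, 1874 and 1866 in heterozygous, and 1332 and 1336 in knockout, and Cspg4, the NG2 proteoglycan, had 206 and 205, 120 and 113, and 89.6 and 94.1 CPM.

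Neural and secretory genes numbered 11 and held the 3 largest rises on the log2 scale from wild type to heterozygous among the 67 genes. Pcsk2, a protease that matures prohormones, had 12 and 2 counts in wild type, 84 and 164 in heterozygous, and 296 and 331 in knockout, or 0.354 and 0.0591, 2.84 and 5.04, and 9.14 and 9.92 CPM. Sncg, gamma-synuclein, had 1.47 and 1.27, 6.89 and 7.59, and 19.7 and 23.4 CPM, and Syt13, a synaptotagmin, had 4.22 and 3.10, 12.2 and 10.9, and 33.9 and 38.1 CPM. In these 3 genes the heterozygous libraries lay above both wild-type libraries, while the rule itself placed them under knockout. The log2 fold changes of heterozygous against wild type were 4.27 ± 0.39, 2.44 ± 0.19 and 1.69 ± 0.14, with adjusted p-values of 6.01e-11, 1.52e-14 and 1.97e-13. Pcsk1, the companion convertase, had 3.39 and 2.01, 3.78 and 3.81, and 7.78 and 9.86 CPM and did not pass (adjusted p = 0.0648).

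Other genes of this group were lower in heterozygous or did not pass. Nrcam, a neuronal adhesion molecule, had 26.0 and 26.7 CPM in wild type, 19.4 and 22.1 in heterozygous, and 52.3 and 52.0 in knockout (log2 -0.30 ± 0.08, adjusted p = 0.00275, lost at 0.0869 without heterozygous replicate 1). Npy, the neuropeptide Y gene, had 13.3 and 11.6, 9.52 and 8.64, and 23.3 and 22.9 CPM (log2 -0.42 ± 0.12, adjusted p = 0.00629), a call lost without wild-type replicate 1 or heterozygous replicate 2 (adjusted p of up to 0.113). In both genes the heterozygous libraries lay under the wild-type libraries. Kif1a, a kinesin motor of axonal transport, had 23.4 and 22.7, 22.8 and 25.2, and 51.2 and 51.5 CPM, and Ctnnd2, delta-catenin, had 1.68 and 1.86, 1.08 and 1.78, and 5.65 and 6.90 CPM. The guidance cue Slit1, the secreted protein Lgi2 and Arfgef3 reached 5.15, 14.6 and 16.2 CPM in knockout, and none of these 5 passed in heterozygous. For Slit1 and Lgi2 the heterozygous libraries lay above both wild-type libraries.

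Several defining markers of neurons were at or near 0. Snap25 and Syt1 had at most 4 counts in any library, and Elavl3, Rbfox3 and Nefl had 0 in all. Of 5 neuronal markers tested, 0 were higher and 1 was lower in knockout than wild type. That marker, Map2, had 9.65 and 9.37 CPM in wild type, 0.810 and 0.646 in heterozygous, and 0.123 and 0.210 in knockout. Its log2 fold change from wild type to knockout was -5.82 ± 0.35 (edgeR, adjusted p = 4.11e-18). The neuronal list summed to 27.2 and 27.7 CPM in wild type, 18.1 and 16.8 in heterozygous, and 20.5 and 18.4 in knockout. Of 9 tested markers of Schwann and glial cells, 1 was higher and 5 were lower in knockout than wild type, with sums of 53.0 and 56.8 CPM in wild type, 65.7 and 64.3 in heterozygous, and 53.7 and 49.4 in knockout. Among them Sox10 had 29 and 67 counts in wild type, 104 and 85 in heterozygous, and 0 and 2 in knockout. The part of such cells in the levels of the neural genes was not tested. Of 14 tested genes of synaptic vesicles and synucleins besides Sncg and Syt13, 4 were lower in knockout than wild type. The count of lower genes was 2 without either knockout library. Cplx2, a complexin, had 4.51 and 3.81 CPM in knockout and fell from wild type by 1.37 on the log2 scale (SE 0.19, adjusted p = 7.39e-08). Among 33 axon guidance genes other than Slit1, 6 were higher and 20 lower in knockout than wild type, with a median log2 of -0.44. Sema3d had 81.6 and 81.8 CPM in wild type, 2.43 and 3.32 in heterozygous, and 4.75 and 6.30 in knockout.

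Growth factors and transcription regulators numbered 5. Grem1, the secreted BMP antagonist gremlin-1, had 19.0 and 22.0 CPM in wild type, 59.5 and 58.1 in heterozygous, and 128 and 137 in knockout. Its heterozygous libraries lay above wild type without overlap, at 2.87 times on average (edgeR, log2 1.56 ± 0.07, adjusted p = 3.11e-23). Knockout was 2.25 times heterozygous, a difference of a kind that the rule required. Gdf15, a stress-induced cytokine of the TGF-beta family, had 16.3 and 15.7, 16.3 and 16.3, and 32.2 and 32.2 CPM, and heterozygous did not differ from wild type past the threshold (log2 0.07 ± 0.10, adjusted p = 0.623). Tbx18 and Sim2, transcription factors of development, had 19.9 and 20.2 CPM and 9.23 and 9.50 CPM in knockout, with overlapping wild-type and heterozygous libraries. Of 21 other genes for BMP ligands and antagonists, 3 were higher and 10 lower in knockout than wild type, and among them Gdf10 fell from 19.3 and 21.0 CPM through 3.24 and 4.12 to 0.833 and 1.11.

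Enzymes and transporters made up 9 genes. Alpl, the alkaline phosphatase of mineralising tissue, had 9.14 and 10.3 CPM in wild type, 6.95 and 7.29 in heterozygous, and 29.1 and 30.6 in knockout. It was lower in heterozygous (log2 -0.41 ± 0.13, adjusted p = 0.00871), a call lost without wild-type replicate 2 or heterozygous replicate 1 (adjusted p of up to 0.114). Of 7 other osteoblast markers tested, 2 were higher and 2 lower in knockout than wild type. Spp1 had 10361 and 10359 CPM in wild type, 9232 and 9396 in heterozygous, and 14648 and 14446 in knockout. Ibsp had 2.63 and 3.90, 0.506 and 0.646, and 0.0926 and 0.270 CPM. Slc16a12, a transporter of the monocarboxylate family, had 0.619 and 1.30, 2.80 and 3.01, and 7.81 and 7.29 CPM, and rose in heterozygous (log2 1.64 ± 0.29, adjusted p = 1.08e-05). Slco2a1, the prostaglandin uptake transporter, had 45.1 and 50.1, 59.0 and 52.5, and 108 and 107 CPM (log2 0.27 ± 0.06, adjusted p = 4.61e-04). Smpd3, a neutral sphingomyelinase, had 3.48 and 3.66, 2.70 and 2.95, and 8.73 and 9.05 CPM, lower in both heterozygous libraries without passing (adjusted p = 0.292).

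Masp1, a serine protease of the lectin pathway of complement, had 36.1 and 36.5 CPM in wild type, 37.5 and 39.1 in heterozygous, and 82.3 and 74.1 in knockout. Together with Cfp it belongs to a complement list of which 17 other genes were tested. Of these, 14 were higher in knockout than wild type, and 13 were higher and 1 lower in heterozygous than wild type. Against heterozygous, 5 of them were higher and 6 lower in knockout, with a median log2 of -0.06. C1s1 was highest in heterozygous, with 47.7 and 46.9 CPM in wild type, 171 and 162 in heterozygous, and 108 and 108 in knockout. C3 had 171 and 174, 306 and 291, and 374 and 363 CPM, with a step of log2 0.83 ± 0.03 in heterozygous (adjusted p = 1.81e-24), whereas the step of Masp1 did not pass (log2 0.12 ± 0.07, adjusted p = 0.176). Whether the steps of these genes differ was not tested. The remaining enzymes and transporters, Stk26, Slc24a5, St14 and Scly, had 8.28 to 45.8 CPM in knockout and none passed in heterozygous.

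LOC100534389 had the largest ratio of all, 18.5, with 0.708 and 0.886 CPM in wild type, 0.911 and 0.861 in heterozygous, and 16.9 and 19.4 in knockout, that is 24 to 30 counts against 547 and 646. RefSeq lists it as the pseudogene Gm8189 (chromosome 19, 8523243 to 8541809), a name the rule would have dropped, and reads of related genes may have been counted in it. Erdr1, at the tip of chromosome X, had 2.27 and 2.01, 0.878 and 1.32, and 8.02 and 6.69 CPM. It was lower in heterozygous (log2 -0.91 ± 0.29, adjusted p = 0.0107), a call lost with only the 4 libraries compared, without wild-type replicate 1 or without heterozygous replicate 1 (adjusted p of up to 0.144). Synpo2, an actin-binding protein, had 7.78 and 7.55 CPM in knockout from 2.74 to 4.22 elsewhere.

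By position the 67 genes were scattered. Chromosome 1 held 9 of them (13.4%, against 5.91% of tested genes). X held 3, which are Stk26, Cfp and Erdr1 (4.48%, against 3.39% of tested genes). The chromosome of Chsy3 held 0, against 2.92% of tested genes. No pair lay within 100 kb, and 3 neighbouring pairs lay within 1000 kb, namely Ikbke and Ctse at 359 kb, Icam2 and Milr1 at 363 kb, and Gpnmb and Npy at 765 kb. Protein-coding genes made up 65 of the 67. Examples chosen after their values were seen show how they differed in the heterozygous level: a ladder from wild type through heterozygous to knockout (Grem1, Sncg, Syt13, Pcsk2, Slc16a12, Aqp1, F5), a plateau followed by a rise in knockout (Gdf15, Hk3, Vwf, Kif1a, Cd300ld, Ikbke) and a dip in heterozygous (Pydc4, Oasl1, Phf11b, Apol9b, Npnt, Treml2). In all of these examples the rise to knockout was set by the rule. For the step between wild type and heterozygous, genotype and sex cannot be told apart. A gene on the plateau is one whose heterozygous difference missed the threshold, which does not show that the levels were equal.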

How the data were processed

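RNA was measured in 6 libraries, 2 per genotype, grouped by the genotype in the labels. The deposited table holds raw read counts per gene symbol, to judge by the values, which are whole and sum to unequal library totals. Reads were aligned to GRCm38 with HISAT2 2.0.4, going by the tool and build listed per the submitters' processing notes. The way reads were counted, the annotation and the strand setting were not given in the sources used here, so overlapping, antisense and near-identical genes cannot be told apart.

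The genes, their roles, the motifs and the gene lists were chosen with earlier results of these data known. CPM is a count scaled to the column total. All 6 libraries entered 1 edgeR 4.0.16 quasi-likelihood fit (R 4.3.3, TMM, default low-count filter, 16061 genes, robust, 3 residual degrees of freedom), tested two-sided on simulated data first, with Benjamini-Hochberg adjustment and a threshold of 0.05. The standard error is the log2 fold change divided by the square root of F. Genes were named by fixed rule: the 20 largest ratios, the 10 highest knockout levels, the 8 largest steps each way in heterozygous, those nearest the 1.7 limit, and in each list up to 4 of the 67 and up to 2 others with the smallest p; the remaining ones were named by role after their values were seen. Positions, promoters and names come from RefSeq, where 65 of the 67 matched by symbol, Pydc4 by an older name and LOC100534389 by its gene number. Exon lengths come from GENCODE. Alternatives were RLE size factors, DESeq2 1.42.0, other filters, only the libraries compared, a replicate block, leaving out each library, and other limits of the rule. Total counts were 29622117 to 33899611, a depth at which 3 counts are 0.0885 to 0.101 CPM.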

Additional observations from a re-analysis of the deposited data

How the results depend on the processing

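The number of genes that met the rule depended on its limits: 147 at a ratio of 1.5, 37 at a ratio of 2, 107 at a mean of 1 CPM, 48 at 10 CPM and 63 with TMM library sizes, against 67. With only wild-type or only heterozygous libraries as the comparison, an alternative chosen after seeing the data, it was 283 or 212. Leaving out 1 library gave 74 to 92 genes, since fewer values then had to meet the limit. For heterozygous against wild type, the median log2 of the genes was 0.07 and ranged from 0.04 to 0.11 when 1 library was left out, being 0.04 without wild-type replicate 1 and 0.11 without heterozygous replicate 1. The genes called higher were 15 to 17 and lower 8 to 11 in those fits, 16 and 11 with DESeq2, 18 and 11 with RLE size factors, and 16 and 10 with only the 4 libraries compared. For the genes called in the main fit, 316 values across alternatives kept their call, 20 lost it and 0 reversed. Calls gained by the other genes are not part of these counts. Deviations of libraries with the same replicate number correlated at -0.02 to 0.02 over the genes tested. Since these deviations also hold counting noise, the values do not settle whether replicate numbers paired the libraries. With the replicate number as a block, 17 genes were higher and 11 lower with a median of 0.07, and the calls over all genes were 6222, 6080 and 5913 for heterozygous against wild type, knockout against wild type and knockout against heterozygous, beside 6248, 6111 and 5951. With 2 libraries per genotype, small differences may go undetected.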
